A study of Mus musculus with 9 samples.

Results

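The insulin-like growth factor (IGF) family was followed through 10 listed genes: the ligands Igf2 and Igf1, the receptors Igf1r and Igf2r, the binding proteins Igfbp2, Igfbp3, Igfbp4 and Igfbp5, the RNA-binding protein gene Igf2bp1 and the non-coding RNA H19. Probe sets, the groups of short probes that read a transcript on the array, were taken as members when 1 of these genes was their single symbol in the platform annotation. This gave 28 of the 45101 probe sets on the array and 9 of the 10 genes. H19 had none, because the probe set that lists it also lists Mir675, a microRNA gene within the H19 transcript. That probe set is described below under both names and is not counted as a member. The family was chosen by a measured value, the higher Igf2 signal in Lim1 mutants, and by gene function. Differences between the groups are therefore given as descriptions and support nothing further.

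Renal vesicles, the first epithelial stage of the nephron, were taken by laser capture from mouse kidneys at stage E12.5. The 4 Lim1 mutant samples and 5 wild-type samples were biologically independent per the labels, each holding about 30 to 50 vesicles, so every sample pools many structures. Lim1, now called Lhx1, encodes a LIM homeodomain transcription factor. The labels do not give the allele, how it was made, the strain, or how many embryos went into a sample. Amplification in 2 rounds preceded hybridisation to an Affymetrix array.

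IGF2 and IGF1 are secreted growth factors that signal through the IGF1 receptor, a tyrosine kinase upstream of the PI3K and MAPK pathways. The IGF2 receptor has no kinase and carries IGF2 to lysosomes, while binding proteins hold IGFs outside the cell. Igf2 is the main growth factor of this family in the mouse fetus. It is expressed from the paternal allele, H19 lies next to it and is expressed from the maternal allele, and Igf2r is imprinted with maternal expression.

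Igf2 is transcribed from several start sites whose leader exons join the same coding exons. RefSeq (GRCm38.p6) gave 4 promoter windows for Igf2, all on the minus strand of chromosome 7, each running from 250 bases before to 50 bases after a start. They lie at chr7:142666767-142667066, chr7:142661222-142661521, chr7:142658755-142659054 and chr7:142657447-142657746. The first of the 2 printed here is shown because it holds TAATTA, a core often bound by LIM homeodomain factors, and the second because it is the most downstream of the 4. Capitals mark TAATTA, which reads the same on both strands.
Igf2, chr7:142658755-142659054, minus strand: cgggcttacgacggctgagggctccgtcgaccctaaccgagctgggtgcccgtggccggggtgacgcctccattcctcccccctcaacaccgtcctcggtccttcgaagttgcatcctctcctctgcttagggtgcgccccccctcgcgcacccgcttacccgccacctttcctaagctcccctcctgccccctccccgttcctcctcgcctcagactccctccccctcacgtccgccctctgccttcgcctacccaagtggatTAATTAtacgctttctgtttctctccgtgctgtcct
Igf2, chr7:142657447-142657746, minus strand: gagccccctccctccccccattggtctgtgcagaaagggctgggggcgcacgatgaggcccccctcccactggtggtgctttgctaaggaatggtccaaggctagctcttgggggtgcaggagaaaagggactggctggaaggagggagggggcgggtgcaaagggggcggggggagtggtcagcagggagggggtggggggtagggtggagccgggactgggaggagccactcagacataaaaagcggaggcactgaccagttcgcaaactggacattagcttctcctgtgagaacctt
The match covers bases 265 to 270 of its window, past the annotated start. Among 12 windows of the 8 members with an entry, this was the 1 window with TAATTA, against 1738 of all 32851 windows in the table, or 5.29%. A match is a string of letters and not a site, and the array does not tell which start site was used.

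Igf2 was higher in Lim1 mutant vesicles than in wild-type vesicles. At its bright probe set, 1448152_at, the deposited signals of mutant arrays 1 to 4 were 45334, 59087, 54392 and 60752, against 29152, 23964, 30324, 19783 and 21625 on wild-type arrays 1 to 5. Every mutant array lay above every wild-type array. The means were 54891 ± 6917 in mutants (SD, n = 4) and 24969 ± 4617 in the wild type (SD, n = 5). On the log2 scale after quantile normalisation, the mutant minus wild-type difference was 1.16 ± 0.15 (SE), or 2.23-fold. The signals were not at the top of the arrays, whose brightest probe sets read from 86331 to 221722.

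Among all tested probe sets, dim and bright together, differences as large as that of Igf2 were not rare, while the spread around Igf2 was small. The median standard error over all tested was 0.49, against 0.15 at Igf2. The share given next is therefore no measure of how rare such a difference is at probe sets as tight. Of 27022 probe sets tested, 2421, or 8.96%, differed by at least as much in either direction. The standard error of Igf2 was smaller than those of 98.7% of them. Some other bright probe sets had similar standard errors, 0.14 at Igfbp4 1437405_a_at and 0.11 at that of Mir675 and H19. Their differences were smaller, at 0.17 and 0.40. Igf2 passed the threshold of adjusted p 0.05 in limma, a linear-model test across all probe sets, but lost it in 8 of the 9 fits that each left out 1 array. The difference in those fits was 1.08 to 1.22. The other Igf2 probe set, 1415931_at, was too dim to be tested. It read 86.1, 125, 122 and 16.6 in mutants, against 4.97, 4.76, 625, 88.6 and 10.1 in the wild type, so it did not separate the groups.

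**Figure D1:**
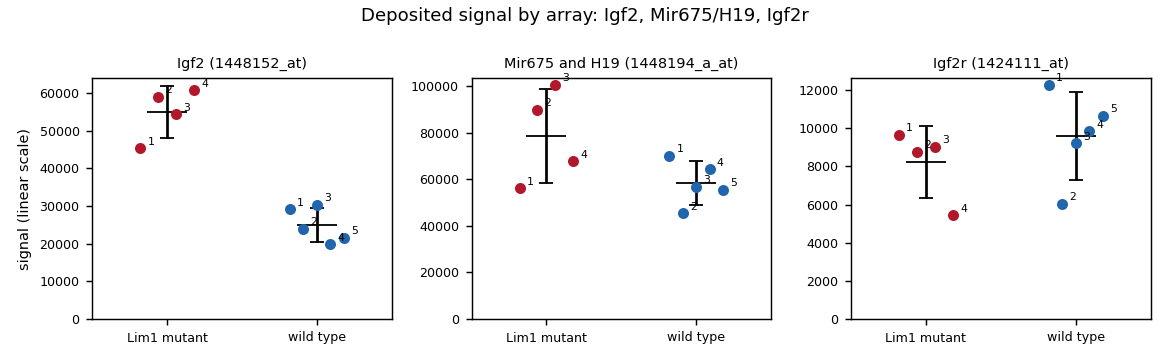
Deposited signal on a linear axis for Igf2, the probe set of Mir675 and H19, and Igf2r, with 1 numbered point per array, the group mean as a horizontal line and the SD as a bar (4 mutant and 5 wild-type arrays). The Igf2 points of the groups do not overlap, while those of Igf2r and of Mir675 and H19 do.

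Over the family as a whole, the values centred on no difference. Of the 28 member probe sets, 25 were bright enough to be tested and 3 were not (1 each of Igf2, Igf1r and Igfbp4). Of the 25, 13 had differences above 0 and 12 below, with a median of 0.02, against 0.03 over all 27022 tested. Igf2 was the 1 member past the threshold, where 9 probe sets, or 0.0333%, passed in all and 4, or 0.0148%, passed as higher. An unadjusted p under 0.05 was reached by 5 of the 25 members, against 6.67% of all tested. The groups did not overlap on the normalised scale at 2 of the 25, bright Igf2 and 1 of Igf1r, against 2.25% of all tested. Bright Igf2, whose signal led to the choice of the family, is included in each of these counts.

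**Figure D2:**
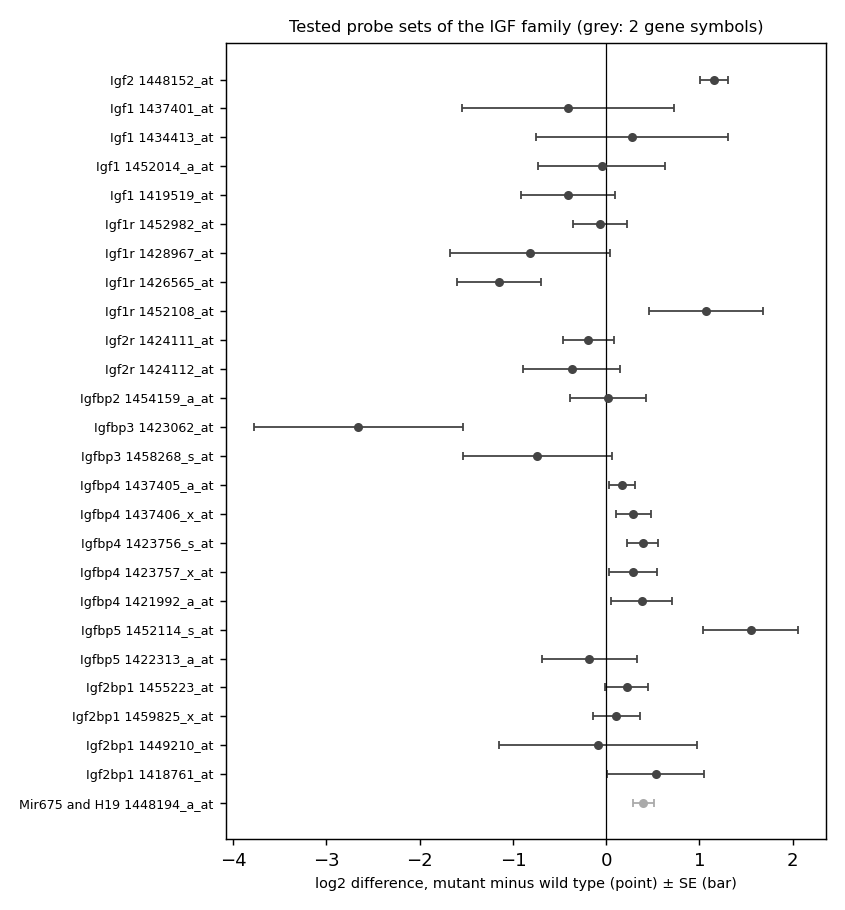
Difference between mutant and wild-type means on the log2 scale for each tested probe set of the family, as a point with its standard error. Bright Igf2 sits at 1.16 with a short bar, while probe sets of Igf1, Igf1r and Igf2bp1 lie on both sides of 0.

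Igf1, the other ligand, varied widely among arrays of the same group. At its brightest probe set, 1437401_at, mutant arrays 1 to 4 read 158, 266, 1992 and 2605, against 212, 3437, 4924, 1252 and 107 on the wild-type arrays. Both groups thus held low and high arrays, and the log2 difference was -0.41 ± 1.14 (SE). The other 3 Igf1 probe sets had differences of 0.28, -0.05 and -0.41. The highest Igf1 signal, on wild-type array 3, fell on the array with the highest level of 9 stroma markers, 1.97 above their mean over the arrays on the log2 scale. The wild-type arrays ranked alike for Igf1 and for stroma level, but the mutants did not. Mutant array 4 had the highest mutant Igf1, 2605, at a stroma level of -0.64. Mutant array 2 had the highest mutant stroma level, 1.04, and read 266. Stroma is a known site of Igf1 expression, and its part in these values was not tested.

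The IGF receptors gave no common direction. Igf1r, the signalling receptor, read 5570, 3225, 3202 and 3598 in mutants at its brightest probe set, 1452982_at, against 4314, 3241, 4141, 5366 and 3442 in the wild type. The groups overlapped there and the log2 difference was -0.07 ± 0.29 (SE). At 1426565_at, a dimmer probe set, mutants read 279, 568, 274 and 391, against 676, 688, 636, 1702 and 615 in the wild type. All 4 mutants were below the wild-type arrays at this probe set, with a difference of -1.15 ± 0.45 (SE) that did not pass the threshold. The remaining tested Igf1r probe sets pointed in opposite directions, -0.82 ± 0.86 at 1428967_at and 1.07 ± 0.61 at 1452108_at (SE). At the first of these, mutant array 1 stood at 5170 against 508 to 937 for arrays 2 to 4, and without array 1 the difference was -1.54.

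Igf2r, the clearance receptor for IGF2, did not separate the groups. At 1424111_at the mutants read 9663, 8777, 9032 and 5439, against 12274, 6022, 9217, 9832 and 10640 in the wild type. The ranges overlapped, with a log2 difference of -0.19 ± 0.27 (SE). The other tested probe set, 1424112_at, ranged from 1160 to 6209 in mutants and from 2019 to 6504 in the wild type, with a difference of -0.37 ± 0.52 (SE). A probe set listed under both Airn, the antisense RNA that silences paternal Igf2r, and Igf2r was dim, at 8.5 to 115 in mutants and 18.4 to 158 in the wild type.

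The probe set of Mir675 and H19 had a small difference whose order of arrays depended on the scaling. Its signals were 56127, 89799, 100538 and 67729 in mutants, against 70176, 45327, 56790, 64242 and 55537 in the wild type. As deposited the groups overlapped, and after quantile normalisation all 4 mutants were above the wild-type arrays. The log2 difference was 0.40 ± 0.11 (SE), or 1.32-fold, and did not pass the threshold. Igf2 and this probe set did not rank the mutants alike: mutant array 4 was the highest of its group for Igf2, and mutant arrays 3 and 2 were the highest here.

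Igfbp5, a binding protein that also attaches to extracellular matrix, had the second largest difference among the members after Igfbp3. At 1452114_s_at the mutants read 15530, 34472, 32955 and 5903, against 5437, 7603, 2789, 10776 and 5642 in the wild type. Mutant arrays 1 to 3 were above the wild type and mutant array 4 was within it. The log2 difference was 1.55 ± 0.51 (SE), or 2.93-fold, without passing the threshold, and it was 2.07 without mutant array 4. The dimmer Igfbp5 probe set, 1422313_a_at, did not share it, at 252 to 456 in mutants and 192 to 846 in the wild type (-0.18 ± 0.51, SE).

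Igfbp4, which binds both ligands, varied more among the mutants than between the groups. At its brightest probe set, 1437405_a_at, mutant signals were 40597, 67902, 79591 and 42748, against 53079, 34855, 56321, 53395 and 49202 in the wild type. Mutant arrays 2 and 3 were above all other arrays and mutant arrays 1 and 4 lay inside the wild-type range. The 5 tested Igfbp4 probe sets had log2 differences of 0.17, 0.29, 0.39, 0.29 and 0.38, all above 0 under each alternative processing and none past the threshold. Probe sets of 1 gene read the same RNA and are not separate support.

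Among the mutants, technical and tissue measures also set arrays 2 and 3 apart. Their stroma marker levels were 1.04 and 0.41, against -0.92 and -0.64 on mutant arrays 1 and 4, and from -0.55 to 1.97 in the wild type. The 3 prime to 5 prime signal ratio of beta-actin, a measure of RNA length, was 25.2 and 23.1 on them, against 16.3 and 17.2 on mutant arrays 1 and 4 and 14.7 to 21.7 in the wild type. That of Gapdh was 61.4 and 39.8 on them, against 17.8 and 17.9 on mutant arrays 1 and 4 and 12.4 to 87.6 in the wild type. Wild-type array 3, with the highest stroma level and Gapdh ratio of all arrays, had the lowest Igfbp5 at 1452114_s_at, 2789. Its Igfbp4 at 1437405_a_at, 56321, was the highest of the wild type. Mutant array 1, lowest in stroma level, read 15530 for Igfbp5, above every wild-type array. The part of tissue or RNA length in the Igfbp4 and Igfbp5 values was not tested. In captured tissue, fewer cells of a type and less RNA per cell cannot be told apart.

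**Figure D3:**
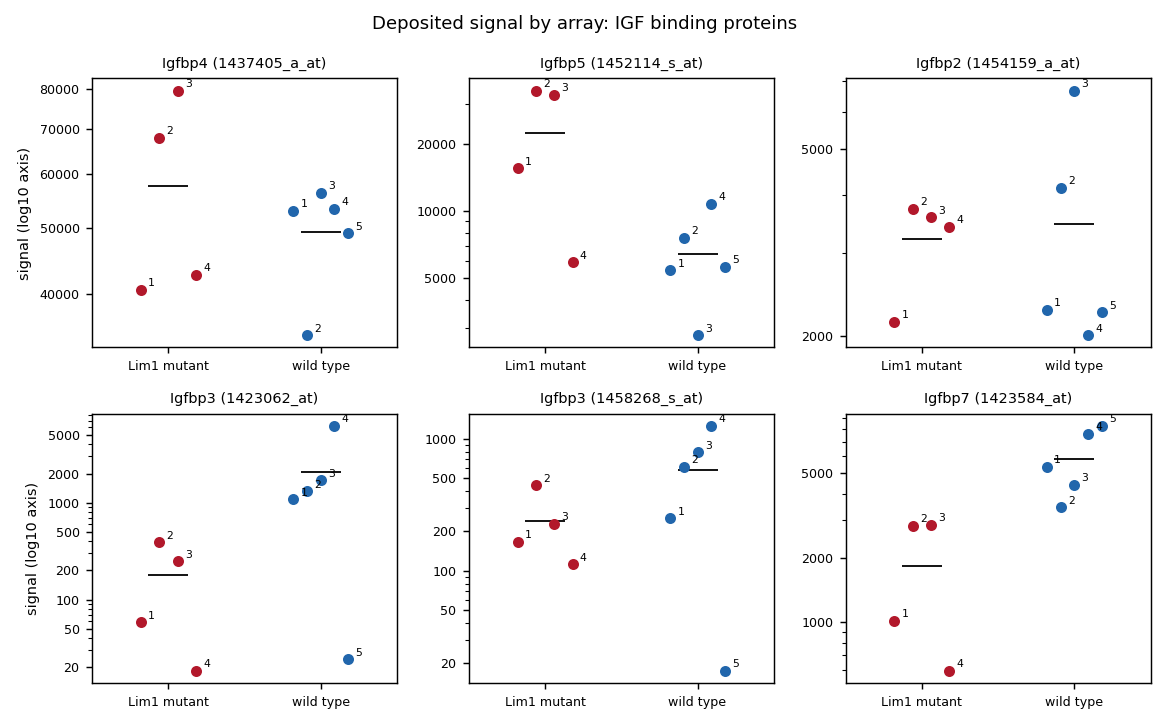
Deposited signal on a logarithmic axis for 5 IGF binding proteins, with 1 numbered point per array and the mean of each group as a line. Mutant arrays 2 and 3 stand highest for Igfbp4 and Igfbp5, wild-type array 5 is far below the rest of the wild type for Igfbp3, and the groups are apart for Igfbp7.

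Igfbp3, the main carrier of IGFs in the adult circulation, had low signals in the mutants and spread widely in the wild type. At 1423062_at the mutants read 58.2, 389, 248 and 18.5, against 1080, 1312, 1703, 6174 and 24.2 in the wild type. Wild-type array 5 was as low as the mutants, so the groups overlapped. The log2 difference was -2.66 ± 1.12 (SE), the largest of the family, without passing the threshold. It was -3.62 without wild-type array 5 and -2.01 without wild-type array 4. The second probe set, 1458268_s_at, ranged from 112 to 445 in mutants and from 17.5 to 1247 in the wild type (-0.74 ± 0.80, SE). Endothelial marker levels, listed here because endothelium can express Igfbp3, were -0.82 to 0.06 in mutants and -0.58 to 1.78 in the wild type, with array 5 lowest of the wild type, and their part in the result was not tested.

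Igfbp2, a binding protein abundant in fetal tissue, did not separate the groups. Its single probe set read 2147, 3737, 3584 and 3417 in mutants, against 2276, 4138, 6670, 2008 and 2249 in the wild type, a log2 difference of 0.02 ± 0.41 (SE). Igf2bp1, which binds Igf2 mRNA and other fetal transcripts, had differences of 0.22 ± 0.23, 0.11 ± 0.25 and 0.53 ± 0.52 (SE) at 3 probe sets. At the fourth, 1449210_at, it was -0.09 ± 1.06 (SE), with signals of 1027 to 2014 in mutants and 34.8 to 7324 in the wild type.

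Genes outside the family that carry or modify the IGF signal were counted from a list of 54, of which 46 had a probe set with a single symbol and 37 were bright enough to be tested. Of the 37, 23 had differences above 0 and 14 below, with a median of 0.13, against 0.07 over 13226 genes. None passed the threshold in limma in either direction, against 0.0529% of all genes tested, and 2 had an unadjusted p under 0.05, against 7.73%. Downstream of the receptor, the log2 difference was 0.25 ± 0.30 for Akt1, a kinase of the PI3K pathway, 0.10 ± 0.19 for Grb10, an adaptor that restrains the receptor, and 0.33 ± 0.31 for Mtor, a growth-control kinase (SE, brightest probe set). The other tested probe sets gave -0.50 and 0.15 for Akt1, -1.61 for Grb10 and 0.56 for Mtor, so those of Akt1 and Grb10 disagreed in sign. Akt1, Grb10 and Mtor were chosen after their values were seen.

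Igfbp7, an IGFBP-related secreted protein of low IGF affinity, was the 1 gene of the 37 whose groups did not overlap. Over all genes tested the share was 2.77%, so a count of 1 is near the background. It read 1013, 2832, 2865 and 594 in mutants, against 5359, 3458, 4390, 7638 and 8292 in the wild type. Every mutant was lower, with a log2 difference of -1.88 ± 0.52 (SE) and an adjusted p = 0.59 in limma. The other tested Igfbp7 probe set was dim and overlapped (-0.95 ± 0.56, SE). All 7 tested endothelial markers of 9 listed also had differences below 0, none past the threshold, while Pecam1 and Tie1 were too dim to be tested. Their list levels overlapped, at -0.82 to 0.06 in mutants and -0.58 to 1.78 in the wild type. Within the wild type, array 5 had the lowest list level and the highest Igfbp7, 8292, while array 3 had the highest level and read 4390. Among the mutants, arrays 1 and 4 were the lowest in both. The part of endothelium in the Igfbp7 values was not tested.

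Genes near Igf2 and H19 on chromosome 7 had differences on both sides of 0. Of 16 listed neighbours, 13 were tested, 7 with differences above 0 and 6 below, with a median of 0.08. None passed in limma in either direction, and 2 of the 13 had an unadjusted p under 0.05, against 7.73% of all genes tested. The groups overlapped at all 13, where 2.77% of all genes did not overlap. Ins2, the insulin gene next to Igf2, had a difference of -0.40 ± 0.42, and Cdkn1c, an imprinted cell-cycle inhibitor expressed from the maternal allele, one of -0.06 ± 0.26 (SE). Lsp1, a cytoskeletal protein of leukocytes, and Tnnt3, a troponin of fast muscle, were the largest at 1.06 ± 0.37 and 2.03 ± 0.66 (SE). Tnnt3 was dim, at 196 to 900 in mutants and 40, 42.3, 319, 10.5 and 23.6 in the wild type. Except on array 3, its wild-type signals were below the constant of 42.41 added before taking logs. Ins2, Cdkn1c, Lsp1 and Tnnt3 were chosen after their values were seen.

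Markers of the vesicle and of other tissues were read as list levels. Such levels compare arrays and do not show how much of a tissue was present. All 10 vesicle markers were bright enough to be tested, with list levels of -0.30 to -0.15 in mutants and -0.55 to 0.69 in the wild type. This list includes Lhx1, the mutated gene, with log2 differences of -0.86 ± 0.58 (SE) at its brightest probe set and -6.64 at the other. Cap mesenchyme levels were -0.02 to 0.11 in mutants and -0.70 to 0.53 in the wild type (5 of 6 markers tested, Cited1 below the filter). Wild-type arrays 2 and 3 were high in cap mesenchyme (0.53 and 0.50) and low in vesicle level (-0.45 and -0.55). On wild-type arrays 1, 4 and 5, cap mesenchyme stood at -0.50, -0.70 and -0.48, and vesicle at 0.49, 0.69 and 0.49. Ureteric bud levels were -1.86 to 0.64 in mutants and -0.81 to 1.41 in the wild type (5 of 7 tested). All 9 stroma markers were tested, at -0.92 to 1.04 in mutants and -0.55 to 1.97 in the wild type. Macrophage levels were -0.32 to 0.76 in mutants and -0.88 to 0.35 in the wild type (3 of 5 tested), and erythroid levels were -1.43 to 0.75 in mutants and -0.72 to 0.77 in the wild type (4 of 5 tested). Single markers could differ where list levels overlapped. The groups were apart for Meox1 of cap mesenchyme (2.18 ± 0.71, SE) and Meis1 of stroma (0.85 ± 0.25, SE), higher in mutants. They were also apart for Emx2, listed here under ureteric bud (-2.16 ± 0.50, SE), lower in mutants. Its highest wild-type signal, 11077, was on array 4, where the ureteric bud list level was the lowest of the wild type, -0.81. None of Meox1, Meis1 and Emx2 passed the threshold, other Meis1 probe sets gave -0.91 and -0.06, and 2.77% of all genes did not overlap. The part of other tissue in the Igf2 difference was not tested.

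**Figure D4:**
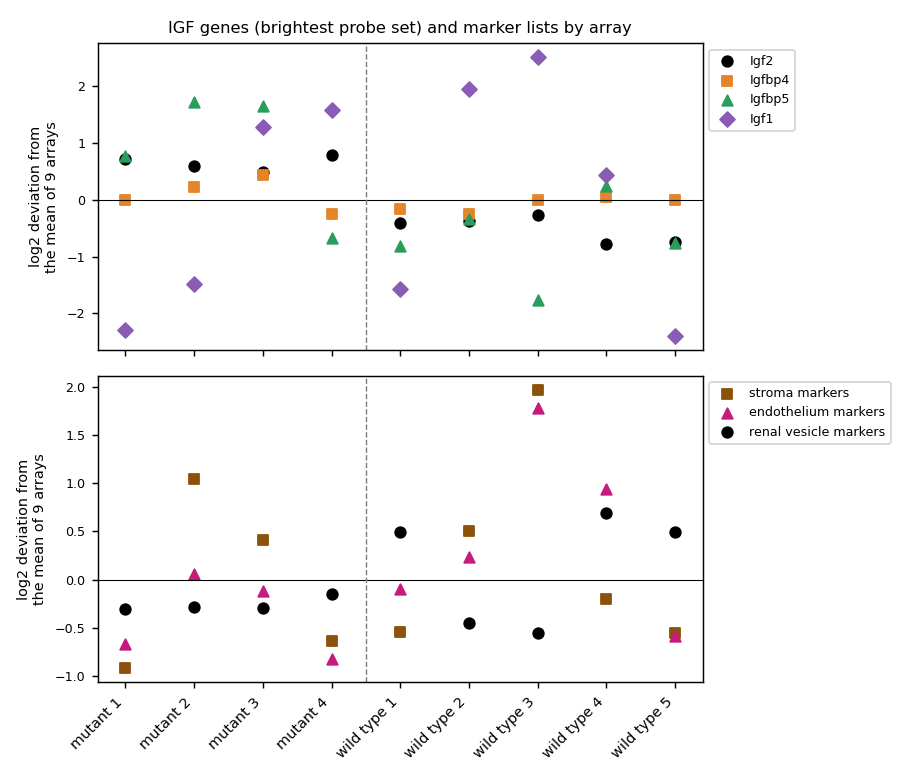
Log2 deviation of each array from the mean of the 9 arrays, for the brightest probe sets of Igf2, Igfbp4, Igfbp5 and Igf1 in the upper panel and for marker lists in the lower panel, with mutants left of the dashed line. Igf2 is above 0 on the 4 mutant arrays and below it on the 5 wild-type arrays, while stroma and endothelium are highest on wild-type array 3.

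The genes whose pattern over the 9 arrays was most like that of bright Igf2 were Gpx6, C1qtnf12, Creg1, Iqgap1 and Carmil3, with Pearson r of 0.965, 0.937, 0.932, 0.926 and 0.914 on the log2 scale. All 5 had groups that did not overlap on the normalised scale, and a high r with Igf2 over the 9 arrays rests largely on that separation. In the same order, their log2 differences were 2.60, 0.79, 1.69, 0.62 and 1.19. With group means removed, the most alike were Cdkn2aipnl, Eif3d, Rilpl2, Dtd1 and Dnttip1, with r of 0.971, 0.956, 0.954, 0.952 and 0.942, and all 5 had overlapping groups. The top 5 are taken from 13225 genes and 9 arrays, and the values of each array share 1 library. Within the family, at brightest probe sets, r with Igf2 over the 9 arrays ran from -0.580 at Igfbp3 to 0.559 at Igf2bp1. With group means removed, it ran from -0.687 at Igfbp5 to 0.604 at Igf2bp1. Igfbp5 had r of 0.517 over the 9 arrays.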

How the data were processed

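The authors deposited 1 linear intensity per probe set and array for 4 Lim1 mutant and 5 wild-type samples. They came from GCOS, per the submitters' processing notes, with version and scaling not given in the sources used here. The mean after trimming 2% at each end was 1500 on every array, so the arrays had been scaled. Array medians were 144 to 195, and the number of arrays limits precision.

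Intensities became log2(value + 42.41), the 25th percentile of all values, which understates changes of dim probe sets. The arrays' log2 medians differed by 0.349 and were quantile normalised. Of 45101 probe sets, 64 controls were left out, and 27022 reached the 40th percentile of means and were tested with limma 3.58.1 in R 4.3.3 (eBayes with a variance trend, two-sided, Benjamini-Hochberg adjustment). A gene stands for its brightest probe set. Signals of different probe sets are not comparable as levels. A marker list's level on an array is the median over tested members of the log2 deviation from their 9-array means. Members of the family are all reported; from the gene lists, genes that passed, up to 4 that did not overlap between groups, and the 5 genes most like Igf2 were named by rule. Akt1, Grb10, Mtor, Ins2, Cdkn1c, Lsp1 and Tnnt3, and the markers Lhx1, Meox1, Meis1 and Emx2, fall outside it and were picked with their values in view. The fit was tested on simulated data. Members and lists were chosen with earlier results of these data known.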

Additional observations from a re-analysis of the deposited data

Results flagged for a closer look

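Of 52 sets of values (26 probe sets in each group), 4 had 1 array set apart from the others by Dixon's gap-to-range criterion. Chance gives about 1 in 20, or 2.6. Mutant array 3 read 198 at Igf1 probe set 1419519_at, against 88.5 to 92.2 on the other mutants. Mutant array 1 read 5570 at Igf1r probe set 1452982_at, against 3202 to 3598 on the other mutants. Wild-type array 4 read 1702 at Igf1r probe set 1426565_at, against 615 to 688 on the other wild-type arrays, and without it the difference there was -0.92. Wild-type array 2 read 2779 at Igf2bp1 probe set 1459825_x_at, against 3604 to 3898 on the other wild-type arrays. The cause was not tested for any of them.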

How the results depend on the processing

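The Igf2 difference stayed between 1.05 and 1.23 in all 20 alternative settings, but its adjusted p in limma passed in 6 and failed in 14. Those 14 left 0 members past the threshold, with 2 to 7 of the members at an unadjusted p under 0.05. In the main fit, 5 of 25 members and 6.67% of all tested probe sets had an unadjusted p under 0.05. Adjusted p ranged from 0.0124 with array weights to 0.563 with the replicate block. The call was lost without quantile normalisation (difference 1.15, adjusted p = 0.12), with median centring (1.05, adjusted p = 0.378), with 1 prior variance for all probe sets in place of a trend (1.16, adjusted p = 0.485), without wild-type arrays 1 and 3 (1.23, adjusted p = 0.0645) and without wild-type array 3 and mutant array 4, an alternative chosen after seeing the data (1.15, adjusted p = 0.115). Leaving out 1 array at a time gave 1.08 to 1.22 with adjusted p of 0.0417 to 0.128, kept in 1 of the 9 fits, without wild-type array 3, so 0 to 1 members passed.

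The replicate block gave an Igf2 difference of 1.10 and 0 probe sets past the threshold of 27022 (1756 at an unadjusted p under 0.05). Deviations of same-numbered arrays correlated at -0.11 to 0.05 and 1 of 4 mutants correlated best with its own number. These values gave no sign that the numbers pair the arrays, but they cannot exclude a weak shared effect. Over all probe sets, 0 passed without wild-type arrays 1 and 3 (2013 at an unadjusted p under 0.05), 2 without wild-type array 3 and mutant array 4, and 3 to 8 with 1 array left out, against 9. Among the other 24 member probe sets no value passed or moved by more than the spread within groups, though 8 changed sign under some setting. The pathway list had 0 genes past the threshold throughout, with 1 to 3 at an unadjusted p under 0.05. The main fit had 2 of 37 there, against 7.73% of all genes tested. The cause of the lost calls was not tested. Probe sets below the filter have no test here.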
